A study of Mus musculus with 6 samples.

Results

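The genes described here are 40 genes of DNA replication and S phase, measured in the colonic mucosa of C57BL/6 mice. They were chosen by name, from textbook function, and a gene counted as measured where the array platform gives a probe set that gene symbol alone. Of the 40 genes 39 were measured, out of 18193 genes named on the array. Chaf1a had no such probe set and is not described further. All 39 passed the filter on dim probe sets, which left 12437 genes. The study compared 3 arrays with the genotype label p38a-knockout against 3 labelled wildtype, lettered A, B and C in each group. All were untreated and annotated as intestinal epithelial cells. p38a is the stress-activated protein kinase that Mapk14 encodes. The labels give no age, Cre driver or deleted exon. They do not say whether the arrays came from separate animals, so p-values measure only the spread between these arrays.

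DNA replication starts from origins that are licensed in G1, when the origin recognition complex, Cdc6 and Cdt1 load the ring-shaped MCM helicase onto DNA. In S phase Cdc45 and the GINS complex turn the loaded ring into an active helicase, primase and the polymerases copy both strands, and the sliding clamp PCNA holds polymerases on DNA. Many of these genes are transcribed by E2F factors as cells pass from G1 into S. In the colon dividing cells lie in the lower crypt, and colonocytes at the surface have left the cell cycle. In RNA from a whole tissue, fewer dividing cells and less transcript per cell cannot be told apart.

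The promoters were searched for a binding word of the E2F type, as a description only, because many such genes are transcribed by E2F factors. A larger share of promoters with a word than among all genes was therefore likely beforehand. The words were TTTCCCGC, TTTCGCGC, TTTGCCGC and TTTGGCGC, read on both strands, and matches may overlap. The RefSeq promoter table of the mouse build GRCm38.p6 holds windows of 300 bases, from 250 before to 50 after a gene's start, for 32 of the 40 genes. Of these 32 genes 12 (37.5%) held a word, against 704 of 27025 genes (2.6%) in the whole table. The 12 were Orc1, Cdc6, Cdt1, Mcm3, Mcm5, Mcm6, Mcm7, Pola1, Pold1, Rfc3, Lig1 and Uhrf1. The CCAAT box, read on both strands, was found in 19 of the 32 (59.4%) and in 41.1% of all genes. A match describes letters and not binding, and no match says only that these letters are not in the window. The stretches printed here show the words upstream of the start of 5 licensing, helicase and polymerase genes, 5′ to 3′ on the gene's strand, with the words in capitals. They lie at chr4:108579415-108579446 (plus strand), chr11:98908001-98908032 (plus strand), chr8:75109344-75109379 (plus strand), chr1:128359733-128359827 (minus strand) and chrX:93632274-93632305 (minus strand).
Orc1: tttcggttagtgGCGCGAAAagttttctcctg
Cdc6: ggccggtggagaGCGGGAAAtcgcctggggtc
Mcm5: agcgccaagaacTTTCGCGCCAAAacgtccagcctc
Mcm6: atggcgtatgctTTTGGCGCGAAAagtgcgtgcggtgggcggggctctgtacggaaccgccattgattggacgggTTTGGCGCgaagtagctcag
Pola1: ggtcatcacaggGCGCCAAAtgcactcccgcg
The word of Orc1 began 27 bases before the gene's start, and those of Cdc6 and Pola1 began 138 bases before it. In Mcm5 and in the distal part of Mcm6, words on opposite strands overlapped. Mcm6 had a further word 47 bases before its start.

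Values are log2(signal + 16) after quantile normalization, given in the order A, B, C. A difference is the mean of the arrays labelled knockout minus that of wild type on this log2 scale. The 10 epithelial markers, among them Epcam and Vil1, all passed the filter, and their mean lay between 12.13 and 12.31 on the 6 arrays. With the knockout label 5 of them were on average higher and 5 lower, and limma called 0. The groups did not overlap in 2 of the 10, against 9.06% of all genes. These were Fabp2 at -0.62 (SE 0.16) and Krt18 at -0.25 (SE 0.12), both lower. Mapk14, on its brightest probe set, read 9.72, 9.91 and 9.73 against 9.31, 9.44 and 9.37: it was higher, not lower, with the knockout label, by 0.41 (SE 0.14, limma adjusted p = 0.902), and where this probe set lies relative to the deleted part is not known here. As deposited, an array's 2% trimmed mean signal was 192 to 222 with the knockout label, and 141, 188 and 117 in wild type. The 3′ over 5′ signal ratio of the Gapdh controls, which rises as RNA breaks down, was 0.859 to 0.954 with the knockout label and 1.10, 0.989 and 1.45 in wild type. The same ratio of the Actb controls was 2.05, 2.27 and 1.82 with the knockout label and 2.40, 2.24 and 3.25 in wild type, so it overlapped between the groups. Wild type C was thus the dimmest array and had the highest value of both ratios.

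No replication gene passed the test between the groups, and levels differed more between arrays of 1 group. Of the 39 genes, 25 were on average higher and 14 lower in the arrays labelled knockout. The median log2 difference was 0.08, against 0.02 over all genes tested, of which 53.2% were higher. limma called 0 of the 39 at an adjusted p of 0.05 (adjusted p from 0.902 to 0.995), and it called 0% of all genes. None of the 39 reached 0.05 before adjustment either, which 3.94% of all genes did. The groups did not overlap in 2 genes, Mcm2 and Rfc2, both lower with the knockout label. That is 5.13% of the 39, against 9.06% of all genes in either direction, 4.38% lower and 4.68% higher. The 95% intervals of all 39 genes held 0. They were wide, from -1.10 at the lowest bound to 1.60 at the highest, and 14 of them reached a log2 difference of 1 or -1.

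**Figure D1:**
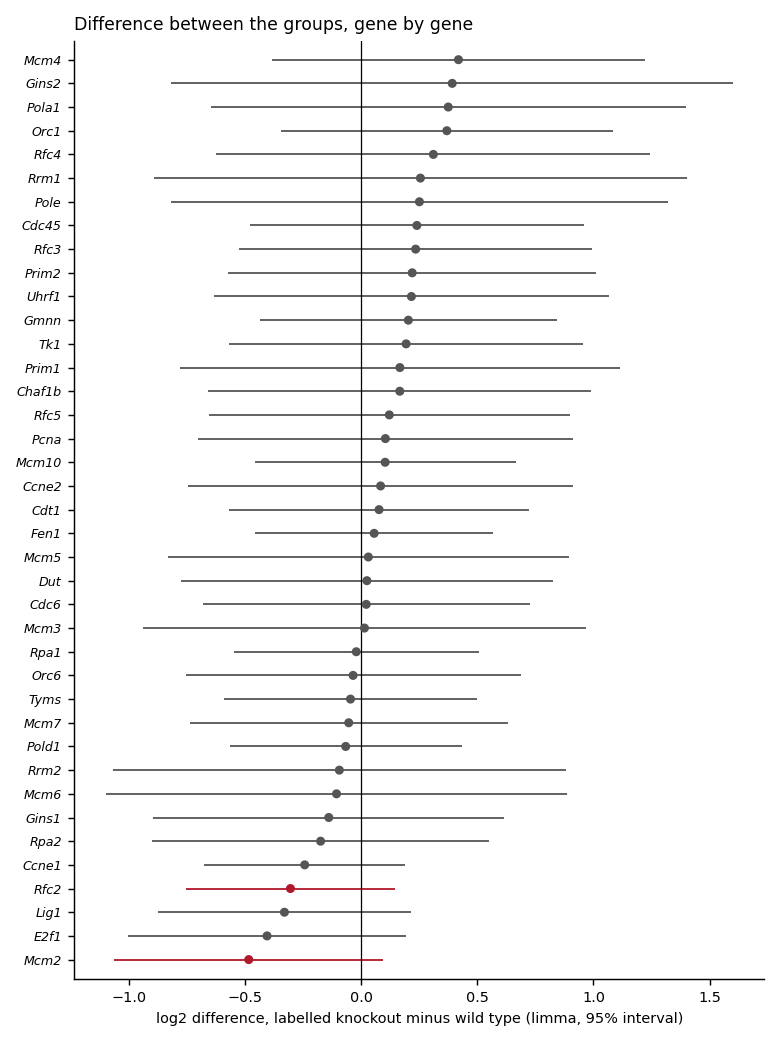
Each row is 1 of the 39 measured replication genes; the point is limma's log2 difference (labelled knockout minus wild type, 3 arrays each) and the line its 95% interval. Differences run from -0.48 (Mcm2) to 0.42 (Mcm4), every interval crosses 0, and red marks the 2 genes whose groups do not overlap.

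The spread within wild type was the main feature of these genes. The median SD among the wild-type arrays was 0.62 over the 39 genes and 0.29 over all genes. Among the arrays labelled knockout it was 0.35 and 0.19. In 35 of the 39 genes the difference between the groups was smaller than the wild-type SD, which held for 72.5% of all genes. Wild type B was the highest of the 6 arrays in 31 genes and wild type C the lowest in 31. Both held in 26 of the 39 (66.7%), against 11.9% of all genes. Within wild type, B lay above C in 36 of the 39 genes, by a median of 1.22 (2.34-fold). Of all genes 52.0% did, by a median of 0.04. Among the arrays labelled knockout, A lay above C in 37 of the 39 genes, by a median of 0.61, and in 55.2% of all genes. These array orders were noticed in the data and are a description, with no test.

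**Figure D2:**
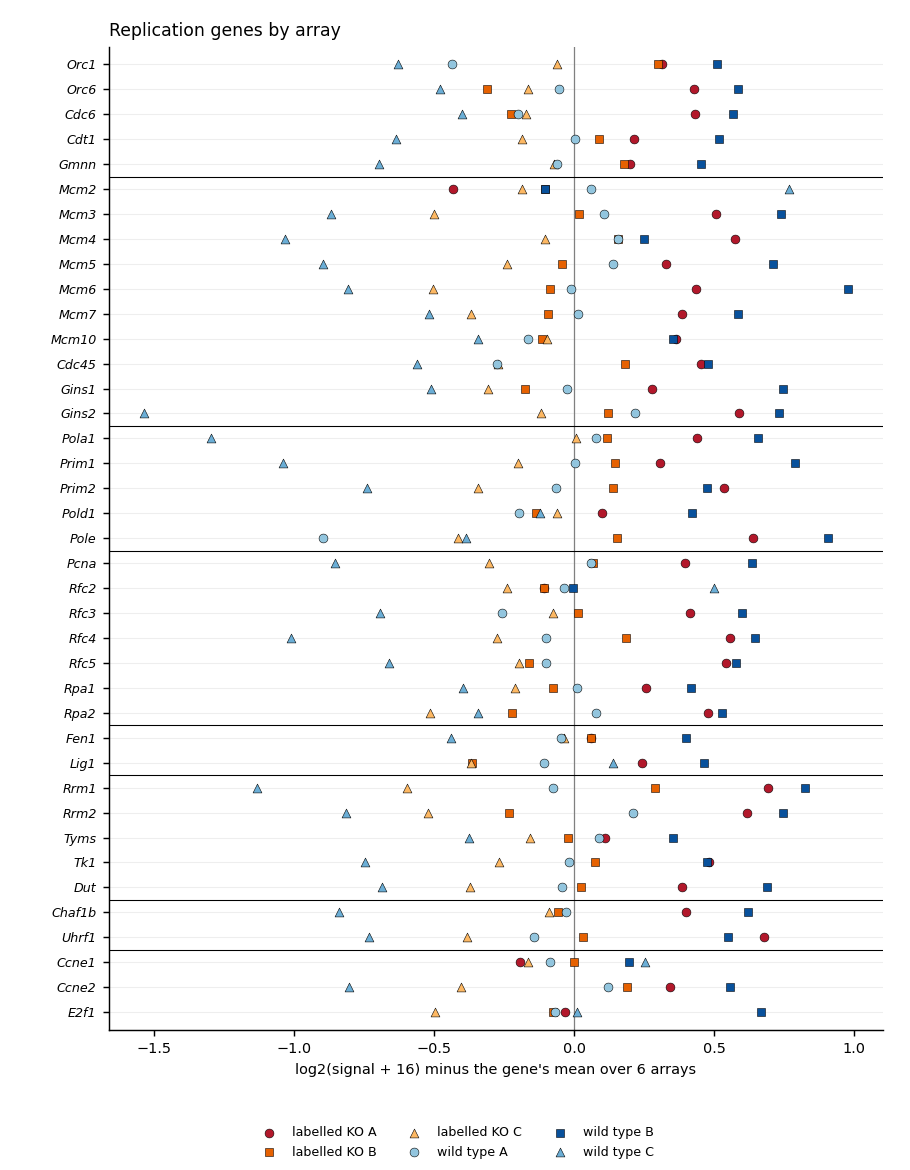
Each row is a gene and each point an array, as log2(signal + 16) minus the gene's mean over 6 arrays; lines part the roles, from origin licensing at the top to G1/S control at the bottom. Wild type B (dark blue squares) lies farthest right in 31 rows and wild type C (blue triangles) farthest left in 31, while the arrays labelled knockout (red to yellow) lie mostly between them.

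In origin licensing all 5 genes were highest in wild type B and lowest in wild type C. Cdc6, which helps to load the helicase, read 6.54, 5.88 and 5.93 in the arrays labelled knockout and 5.90, 6.67 and 5.71 in wild type. The wild-type arrays enclosed those labelled knockout, with a log2 difference of 0.02 (SE 0.31). Orc1, the largest subunit of the origin recognition complex, read 6.90, 6.89 and 6.53 against 6.15, 7.10 and 5.96. Wild type A and C lay below the arrays labelled knockout and B above them, with a difference of 0.37 (SE 0.31). Orc6, another subunit of the complex, read 7.60, 6.86 and 7.01 against 7.12, 7.75 and 6.69, with knockout A and wild type B on top and a difference of -0.03 (SE 0.31). Cdt1, the loading factor that is destroyed once replication starts, read 9.82, 9.69 and 9.42 against 9.60, 10.12 and 8.97. Gmnn, which encodes its inhibitor geminin, read 9.35, 9.33 and 9.08 against 9.09, 9.61 and 8.46. In both, wild type B lay 1.15 above C, and the group differences of 0.08 (SE 0.28) and 0.20 (SE 0.28) were smaller than that.

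Of the 6 subunits of the MCM ring, 5 were lowest in wild type C and 1 was highest there. Mcm5 read 9.49, 9.12 and 8.92 in the arrays labelled knockout and 9.30, 9.88 and 8.27 in wild type, with a difference of 0.03 (SE 0.38). Mcm6 read 9.31, 8.79 and 8.37 against 8.87, 9.85 and 8.07, a difference of -0.11 (SE 0.43). In both genes wild type B was the highest and wild type C the lowest of all arrays. The same held for Mcm3, which read 8.50, 8.01 and 7.49 against 8.10, 8.73 and 7.12 with a difference of 0.01 (SE 0.42). It also held for Mcm7, which read 10.64, 10.16 and 9.89 against 10.27, 10.84 and 9.74 with a difference of -0.05 (SE 0.30). Mcm4 had the largest difference of the 39 genes on the higher side, 0.42 (SE 0.35, limma adjusted p = 0.902). It read 9.72, 9.31 and 9.04 against 9.31, 9.40 and 8.11, so that wild type C alone lay below the arrays labelled knockout. Mcm2 had the largest difference on the lower side, -0.48 (SE 0.25, limma adjusted p = 0.902). It read 7.66, 7.99 and 7.91 against 8.15, 7.99 and 8.86. The gap that parted the groups was 0.00023, between knockout B and wild type B. Wild type C, lowest in the other 5 subunits, was here the highest.

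The factors that activate the ring were also lowest in wild type C. Gins2, a GINS subunit, read 8.12, 7.65 and 7.41 in the arrays labelled knockout and 7.75, 8.26 and 5.99 in wild type. Wild type B and C differed by 2.27, or 4.81-fold, the most of the 39 genes, while the group difference was 0.39 (SE 0.53). Gins1, another subunit, read 7.40, 6.94 and 6.81 against 7.10, 7.87 and 6.61, a difference of -0.14 (SE 0.33). Cdc45, which joins the ring and GINS in the active helicase, read 6.96, 6.69 and 6.24 against 6.24, 6.99 and 5.95, a difference of 0.24 (SE 0.31). Both were highest in wild type B. Mcm10, a factor needed to activate the ring, read 7.69, 7.21 and 7.23 against 7.16, 7.68 and 6.98, a difference of 0.10 (SE 0.24), with knockout A and wild type B nearly level at the top.

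Of the 5 polymerase and primase genes, 4 were on average higher and 0 were called. Pola1, the catalytic subunit of the polymerase that extends primers, read 7.97, 7.65 and 7.54 in the arrays labelled knockout and 7.61, 8.19 and 6.23 in wild type. Wild type C lay below every array labelled knockout and wild type B above every one, so the difference of 0.38 (SE 0.45) was within the wild-type spread. Prim1, the catalytic primase subunit, read 8.73, 8.56 and 8.22 against 8.42, 9.21 and 7.38, a difference of 0.17 (SE 0.41). Prim2, its partner, read 7.68, 7.29 and 6.80 against 7.08, 7.62 and 6.41, a difference of 0.22 (SE 0.34). Wild type C was again the lowest array in both. Pole, the leading-strand polymerase, read 6.59, 6.10 and 5.53 against 5.05, 6.85 and 5.56, with wild type A and not C the lowest and a difference of 0.25 (SE 0.46). Pold1, the lagging-strand polymerase, had a narrow range with a difference of -0.07 (SE 0.22): it read 7.53, 7.29 and 7.37 against 7.23, 7.85 and 7.31.

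The sliding clamp followed the array order, and so did 3 of the 4 clamp loader genes. Pcna read 11.73, 11.40 and 11.03 in the arrays labelled knockout and 11.40, 11.97 and 10.48 in wild type. Its group difference was 0.10 (SE 0.35, limma adjusted p = 0.966), while wild type B and C differed by 1.49. Rfc3 read 7.47, 7.06 and 6.97 against 6.79, 7.65 and 6.36, a difference of 0.23 (SE 0.33). Rfc4 read 8.35, 7.98 and 7.52 against 7.69, 8.44 and 6.78, a difference of 0.31 (SE 0.41). Rfc5 read 8.83, 8.12 and 8.09 against 8.18, 8.86 and 7.62, a difference of 0.12 (SE 0.34). These 3 loader subunits were each highest in wild type B and lowest in C. Rfc2, another loader subunit, departed from them. It read 8.23, 8.23 and 8.10 against 8.31, 8.34 and 8.84, a difference of -0.30 (SE 0.20, limma adjusted p = 0.902) with a gap of 0.07 between the groups. As for Mcm2, wild type C was its highest array. Rpa1 and Rpa2 encode subunits of the protein that coats single-stranded DNA. Rpa1 read 10.25, 9.92 and 9.78 against 10.01, 10.41 and 9.60, a difference of -0.02 (SE 0.23). Rpa2 read 7.84, 7.14 and 6.85 against 7.44, 7.89 and 7.02, a difference of -0.17 (SE 0.32), with knockout C and not wild type C the lowest.

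The 2 genes of lagging-strand maturation differed in sign. Fen1, the flap endonuclease, read 8.96, 8.96 and 8.87 in the arrays labelled knockout and 8.86, 9.30 and 8.46 in wild type, a difference of 0.06 (SE 0.22) with the wild-type arrays on both sides of those labelled knockout. Lig1, the ligase that seals the fragments, read 8.66, 8.05 and 8.04 against 8.30, 8.88 and 8.55, a difference of -0.33 (SE 0.24), with wild type C above 2 of the arrays labelled knockout.

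The genes of deoxynucleotide supply differed widely between single arrays and little between the groups. Rrm2, the S-phase subunit of ribonucleotide reductase, read 9.65, 8.80 and 8.51 in the arrays labelled knockout and 9.24, 9.77 and 8.22 in wild type, a group difference of -0.09 (SE 0.42). Rrm1, its large subunit, read 9.31, 8.91 and 8.02 against 8.55, 9.45 and 7.49, a difference of 0.26 (SE 0.50). In both, knockout A and wild type B were the 2 highest arrays. Tk1, the thymidine kinase of dividing cells, read 8.03, 7.63 and 7.28 against 7.53, 8.03 and 6.80, a difference of 0.19 (SE 0.33). Dut, whose enzyme removes dUTP, read 9.05, 8.69 and 8.29 against 8.62, 9.35 and 7.98, a difference of 0.03 (SE 0.35). Both were lowest in wild type C. Tyms, the thymidylate synthase gene, read 5.40, 5.27 and 5.13 against 5.38, 5.64 and 4.91, a difference of -0.05 (SE 0.24). Its values lay close to the level of the filter, with wild type C below it. Another probe set of Tyms above the filter differed by 0.44.

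Chromatin assembly and G1/S control complete the set. Uhrf1, which helps to copy DNA methylation, read 9.02, 8.37 and 7.96 in the arrays labelled knockout and 8.20, 8.89 and 7.61 in wild type, a difference of 0.22 (SE 0.37). Chaf1b, a subunit of the histone chaperone that follows the fork, read 6.76, 6.30 and 6.27 against 6.33, 6.98 and 5.52, a difference of 0.17 (SE 0.36). Ccne2, a cyclin gene of entry into S, read 7.88, 7.72 and 7.13 against 7.66, 8.09 and 6.73, a difference of 0.08 (SE 0.36). Wild type C was the lowest array in all 3. Ccne1, the paralog of Ccne2, read 6.47, 6.66 and 6.49 against 6.57, 6.86 and 6.91, a difference of -0.24 (SE 0.19), with wild type C the highest. E2f1, a transcription factor of the G1/S genes, read 5.64, 5.60 and 5.18 against 5.61, 6.34 and 5.68, a difference of -0.40 (SE 0.26). Wild type A lay among the arrays labelled knockout, so the groups of E2f1 overlapped.

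Genes with and without an E2F word were set side by side. The 12 genes with a word had a median of 1.22 for wild type B minus C, and all 12 lay higher in B. The 19 measured genes with a promoter but no word had a median of 1.06, and 17 lay higher in B. The median differences between the groups were 0.03 and 0.06. Neither contrast was tested.

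Most genes had further probe sets, which bear on the 2 genes whose groups were separate. In 26 genes there were 34 other probe sets above the filter. In 32 of them wild type B lay above C, and in 28 wild type C was the lowest array with wild type B or knockout A the highest. None of the 34 had separate groups. The other probe set of Mcm2 read 7.63, 7.19 and 6.67 in the arrays labelled knockout and 7.32, 7.84 and 6.56 in wild type, which follows the other MCM subunits, with a difference of -0.08. The brighter probe set of Mcm2 carries a suffix that marks possible reading of related transcripts. Suffixes of this kind also mark the brightest probe sets of Mcm3, Mcm4, Mcm5 and Mcm7, which were lowest in wild type C. Whether such reading bears on the values of Mcm2 was not tested. The other probe sets of Rfc2 differed by -0.10 and 0.07 with overlapping groups. The other probe set of Mcm4 differed by 0.21, against 0.42 on the brightest, and was highest in wild type B. In 12 genes a further probe set differed in sign from the brightest. Among these were Cdc45 (-0.54, lowest in knockout C), Tyms (0.44), Ccne1 (0.09), Mcm6 (0.31), E2f1 (0.04) and Rrm2 (0.14 and 0.68).

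**Figure D3:**
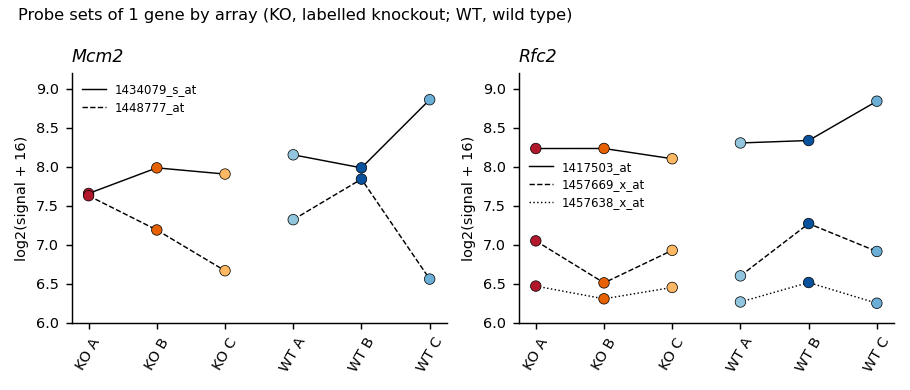
Each line is a probe set and each point an array, as log2(signal + 16), for the arrays labelled knockout and then wild type. The 2 probe sets of Mcm2 part most in wild type C, at 8.86 and 6.56, and of the 3 of Rfc2 the brightest alone is highest in wild type C.

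The rest of the pathway varied with the same arrays. Of 52 other replication genes 48 were tested, with 34 higher, 14 lower and 0 called by limma, and a median difference of 0.08. In 40 of the 48 wild type B lay above C. The smallest p-values on the higher side belonged to Cdca7, a gene linked to chromatin remodelling, at 0.61 (SE 0.27), Pole3, an accessory subunit of the leading-strand polymerase, at 0.36 (SE 0.25), and Rnaseh2a, a subunit of the enzyme that removes RNA from DNA, at 0.31 (SE 0.22). On the lower side they belonged to Pold3, an accessory subunit of the lagging-strand polymerase, at -0.36 (SE 0.16), Pola2 at -0.26 (SE 0.26) and the helicase gene Recql4 at -0.21 (SE 0.23). The groups did not overlap in Pold3, which read 8.26, 8.27 and 8.11 against 8.47, 8.56 and 8.71. They did not overlap either in Rrm2b, another ribonucleotide reductase subunit, which was picked after its values were seen and read 7.04, 6.91 and 6.91 against 6.79, 6.87 and 6.76. Without wild type C 17 of the 48 were higher and 31 lower, with a median of -0.12. Of 28 other G1/S control genes, all tested, 18 were higher, 10 lower and 0 called, with a median of 0.07. Without wild type C this turned to 10 higher and 18 lower, with a median of -0.09. Of the G1/S genes Tfdp2, a partner of E2F factors, stood at 0.35 (SE 0.20), the cyclin gene Ccnd2 at 0.48 (SE 0.31) and Myc at 0.47 (SE 0.41). The kinase gene Cdk2 stood at -0.36 (SE 0.20), E2f2 at -0.25 (SE 0.18) and Cdkn1a, which encodes the cell cycle inhibitor p21, at -0.47 (SE 0.28).

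Mitotic genes ran in parallel with the replication genes across the arrays. The mean level of the 39 replication genes was 8.25, 7.90 and 7.65 in the arrays labelled knockout and 7.85, 8.45 and 7.33 in wild type. The mean of 34 mitosis and G2/M genes was 8.92, 8.69 and 8.19 against 8.30, 8.93 and 7.50. Both put the 6 arrays in 1 order, from wild type B at the top through knockout A, knockout B, wild type A and knockout C to wild type C. In all 34 mitotic genes wild type B lay above C. Of these genes 32 were higher and 2 lower with the knockout label, with a median of 0.36 and 0 called by limma. The smallest p-values belonged to Cdc25c, a phosphatase of mitotic entry, at 0.91 (SE 0.35), the cyclin gene Ccnb2 at 0.65 (SE 0.32) and the kinase gene Plk1 at 0.64 (SE 0.40). The 2 lower genes were Incenp at -0.14 (SE 0.18) and Aurka at -0.06 (SE 0.30). Without wild type C 14 of the 34 were higher and the median was -0.07. Whether the mitotic and the replication genes differed from each other was not tested.

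Several lists of cell type markers varied with the same arrays. The mean of 7 crypt base markers was 7.76, 7.66 and 7.53 in the arrays labelled knockout and 7.67, 8.05 and 6.84 in wild type, and all 7 lay higher in wild type B than in C. The mean of 10 surface colonocyte markers ran the other way, at 11.61, 11.94 and 12.16 against 12.23, 11.73 and 12.39, with 9 of the 10 lower in wild type B than in C. The mean of the 6 T cell markers above the filter, of 9 listed, was 5.71, 6.46 and 6.00 against 6.59, 5.87 and 7.40, highest in wild type C, with Cd2 and Cd4 below the filter. All 6 lay lower in wild type B than in C. By group all 6 were on average lower with the knockout label and limma called 0. In 1 of the 6, Cd3e at -1.01 (SE 0.36), the groups did not overlap, against 9.06% of all genes. The means of Cd3e and Cd8b1 with the knockout label, 5.01 and 5.02, lay below the level of the filter. Both thus passed only through wild type, and their direction is no support for a difference. For 4 B cell markers of 9 the mean was 5.88, 6.49 and 5.82 against 6.40, 5.70 and 6.43, with Cd79a, Cr2 and Pax5 below the filter. For 4 macrophage markers of 6 it was 6.03, 6.99 and 6.66 against 6.83, 6.04 and 7.14, highest in wild type C, with Cx3cr1 and Itgam below the filter. For 7 stromal and muscle markers of 9 it was 6.78, 7.37 and 6.86 against 7.20, 6.56 and 7.04, with Pdgfra and Myh11 below the filter. By group 3 of these 7 were on average higher and 4 lower, and limma called 0. In 1 of the 7, Tagln at 1.04 (SE 0.41), the groups did not overlap, against 9.06% of all genes. Its wild-type mean of 4.86 lay below the level of the filter. Tagln thus passed only through the arrays labelled knockout, and its separation is no support for a difference. In these lists too wild type B lay below C, in 4 of 4 B cell, 4 of 4 macrophage and 7 of 7 stromal and muscle markers. Of 8 pancreatic markers 2 passed the filter, Prss2 and Cela1. Their mean was 7.83 to 8.11 with the knockout label and 7.74, 9.24 and 7.88 in wild type. Prss2 read 7.67 in wild type B and 4.97 to 5.23 on the other arrays, so it passed the filter only through wild type B. Cela1 read 10.44 to 11.16 across the arrays. The part of these cells in the levels of the replication genes was not tested.

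**Figure D4:**
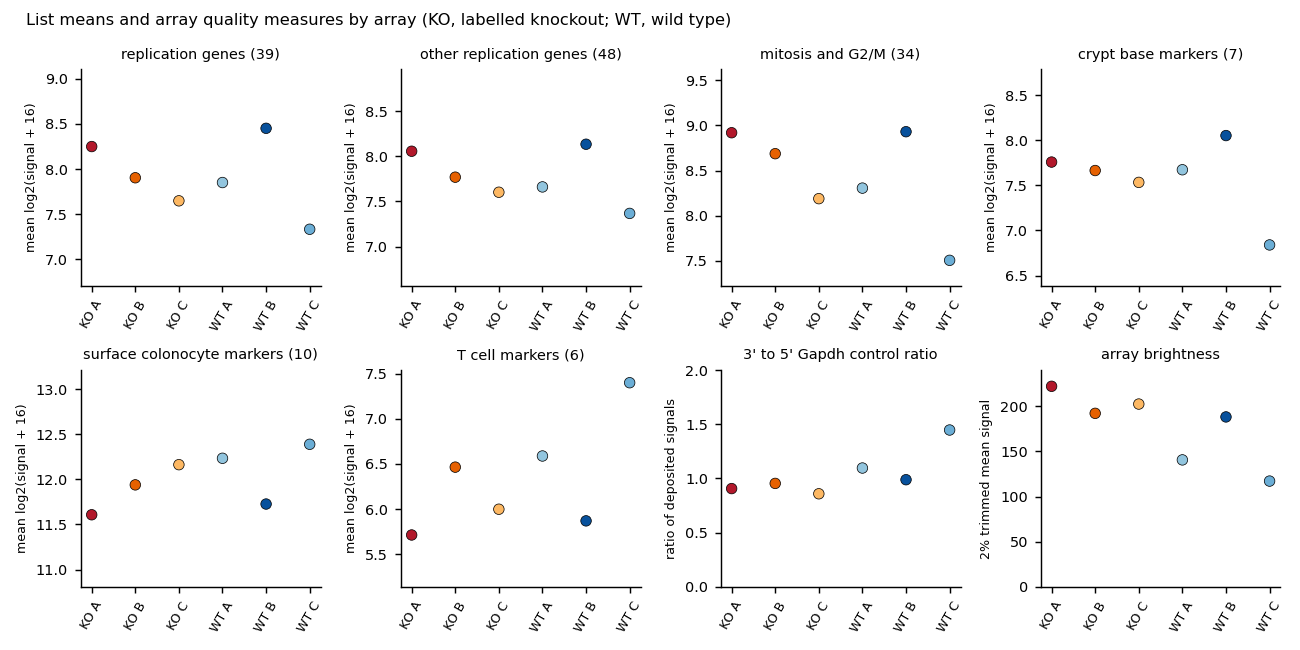
The first 6 panels plot the mean log2(signal + 16) of a gene list on each array, on axes of equal height, and the last 2 plot the 3′ over 5′ Gapdh ratio and the brightness of the deposited signals. Replication, mitotic and crypt base genes are highest in wild type B and lowest in wild type C; surface colonocyte and T cell markers and the Gapdh ratio are highest in wild type C.

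The sign of the comparison rested on single arrays. Without wild type C, 35 of the 39 genes were lower with the knockout label and the median was -0.22. Without wild type B, 34 were higher and the median was 0.38. Without knockout A, 26 were lower, with a median of -0.07. The count of genes with separate groups was 7 of the 39 without wild type B (17.9%), 5 of them higher, against 36.8% of all genes in that setting. With wild type B alone as control all 39 were lower (median -0.51), which largely restates that this array was the highest in 31 genes. With the log2 Gapdh ratio as a covariate 37 were lower (median -0.55). The Gapdh ratio did not overlap between the groups, so that covariate and label cannot be told apart. The Actb ratio, which did overlap, was not used as a covariate. limma called 0 of the 39 in each of these 5 settings. Before adjustment 3 of the 39 were under 0.05 without wild type B, 6 with the Gapdh covariate, and 0 without wild type C or without knockout A. The share of all genes under 0.05 was not counted in these settings, so these counts are no result about the replication genes.

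**Figure D5:**
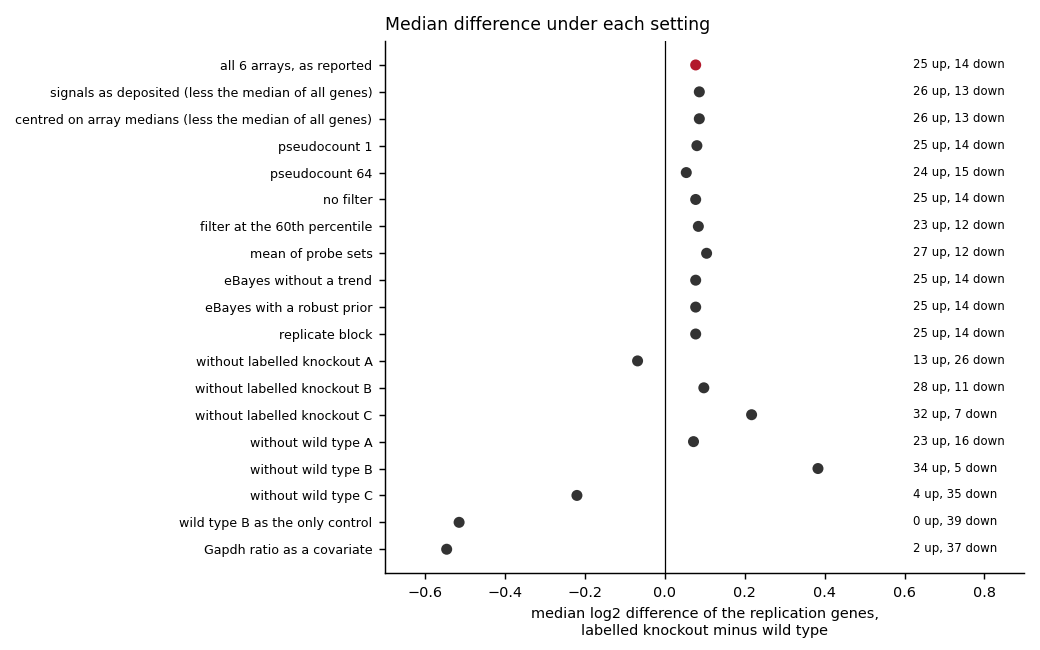
Each point is the median log2 difference of the measured replication genes under 1 setting, less the median of all genes for the signals as deposited and the centred arrays alone (0.52 and 0.28 before that), with the counts of genes higher and lower in the arrays labelled knockout at the right; the red point is the value with all 6 arrays, 0.08. The plotted median lies between -0.55 and 0.38, and it is below 0 without knockout A, without wild type C, with wild type B alone and with the Gapdh covariate.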

How the data were processed

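RNA from 6 mouse colonic mucosa samples was measured on Affymetrix arrays, and the deposited table holds linear intensity values for 45101 probe sets. Per the submitters' processing notes they come from MAS5, and neither version nor scaling is given in the sources used here. Overall brightness differed between arrays, so log2(signal + 16) was quantile normalized, which removes such differences. Probe sets under the 40th percentile of mean level (a signal of about 18.4) and 64 control probe sets were dropped. The brightest probe set with 1 symbol in the platform annotation stood for each gene, which gave 12437 genes.

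The fit used limma 3.58.1 in R 4.3.3 (lmFit, then eBayes with a trend) over all genes, with Benjamini-Hochberg adjustment, and was tested on simulated data. The genes, lists and alternatives were chosen with earlier results of these data known. All 40 genes were to be named, with up to 3 per direction from each other list by smallest p. Of the marker lists only some of the genes that this rule picks are named. Other markers and the further probe sets were singled out after their values were seen. Arrays of the same letter did not deviate together for A and B (correlations -0.04 and -0.11), but did for C (0.45). The highest correlation crossed letters, at 0.51 between knockout A and wild type B, so letters were not taken as pairs. The number of arrays limits the precision. Alternatives were other scalings, pseudocounts, filters, probe set rules and variance priors, a replicate block, each array left out, a single control array, and the Gapdh ratio as a covariate.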

Additional observations from a re-analysis of the deposited data

How the results depend on the processing

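limma called 0 of the replication genes under each of the 18 other settings (35 genes were tested with the filter at the 60th percentile, otherwise 39). The letters as a replicate block left the median at 0.08 and these calls at 0, while 3 of all genes were then called. The median difference ranged from -0.22 to 0.38 with 1 array left out. It was -0.51 with wild type B alone as control, -0.55 with the Gapdh covariate, and between 0.05 and 0.10 in the remaining settings. On signals as deposited and on signals centred on array medians, the median of all genes moved to 0.43 and 0.20, and relative to it the replication genes stood at 0.09 in both. Genes with separate groups numbered 2 to 7 with 1 array left out (13.9% to 36.8% of all genes), 0 as deposited (24.9% of all genes), 0 with arrays centred (9.64%), 1 with the mean of probe sets (9.22%) and 34 with wild type B alone as control (48.6%). Mcm2 and Rfc2 turned to 0.07 and 0.05 with the Gapdh covariate. Of the 39 genes, 25 turned sign with wild type B alone as control, 27 with the Gapdh covariate and 21 without wild type C, and the cause was not tested. With 3 arrays a group, a difference that was not called is not shown to be absent.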

Other observations

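Of 7 crypt base markers 5 were higher and 2 lower with the knockout label (median 0.22), and of 10 surface colonocyte markers 3 were higher and 7 lower (median -0.07). The stem cell gene Lgr5 differed by -0.43 (SE 0.36) between the arrays labelled knockout and wild type and was highest in wild type B. Ascl2, a transcription factor of stem cells, differed by 0.51 (SE 0.37), and Axin2, a Wnt target, by 0.21 (SE 0.19). Of the surface markers the smallest p-values on the lower side belonged to Guca2a and Car4, while Tmigd1, Guca2b and Cyp2c55 stood at 0.23, 0.09 and 0.06. Guca2a, the guanylin gene, stood at -0.35 (SE 0.11) with separate groups, and Car4, a carbonic anhydrase gene, stood at -0.68 (SE 0.36). limma called none of these 8 genes (adjusted p = 0.902 for Lgr5, Ascl2, Axin2, Guca2a and Car4).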
